A study of Mus musculus with 8 samples.

Results

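The guanylate-binding proteins (GBPs) described here are encoded by 8 mouse genes, Gbp2, Gbp3, Gbp4, Gbp5, Gbp6, Gbp7, Gbp8 and Gbp9, out of 51840 genes in the count tables. They were taken by symbol, and all 8 were found. RNA was sequenced from epidermal sheets of ear skin, 1 library for each of 8 mice aged 8 weeks. Every mouse carried floxed A20 alleles (A20F/F; A20 is the product of Tnfaip3, a ubiquitin-editing inhibitor of NF-kappaB signalling). In 4 mice, named A20KIKO, the Krt5-CreERT2 transgene was also present. It places a tamoxifen-activated recombinase under a promoter of basal keratinocytes. The other 4, named A20WT, lacked the transgene. All 8 received 2 intraperitoneal injections of 1 mg tamoxifen, and the tissue was taken on day 7 from the first. The groups thus differ in the recombinase as well as in the deletion, and these cannot be told apart.

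GBPs are large GTPases that interferons, above all interferon-gamma, induce through transcription factors such as IRF1. They assemble on membranes of pathogen-containing vacuoles and on bacteria, where they help to open these compartments and to trigger caspase-4-like inflammasomes and gasdermin D. Some carry a carboxy-terminal CaaX box, the signal for attachment of a lipid that anchors the protein to membranes. In skin, keratinocytes as well as leukocytes can make GBPs when exposed to interferon.

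The 8 genes lie in 2 clusters (GRCm38, GENCODE M21 annotation). Gbp5, Gbp7, Gbp3 and Gbp2 follow each other on the plus strand of chromosome 3. Gbp5 starts the cluster at chr3:142493978-142522344, followed by Gbp7 at chr3:142530342-142550149 and Gbp3 at chr3:142560026-142573209. Gbp2 closes it at chr3:142620602-142638008, with the related gene Gbp2b between Gbp3 and Gbp2. Gbp8 (chr5:105014150-105139540), Gbp9 (chr5:105077630-105139539), Gbp4 (chr5:105115767-105139586) and Gbp6 (chr5:105270702-105293698) lie on the minus strand of chromosome 5. The spans of Gbp8, Gbp9 and Gbp4 overlap, although each shares only 0.814% to 1.77% of its exon bases with the other two.

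RefSeq promoter windows (GRCm38.p6) were at hand for 4 of the 8 members, all on chromosome 3. These 4 genes were all higher in A20KIKO. Of their 5 windows, the 4 that held a match to a motif of the factors that act on GBP genes are shown. Each stretch starts 250 bases before the RefSeq start site and runs 5′ to 3′ on the plus strand, Gbp2 at chr3:142620413-142620613, Gbp3 at chr3:142559794-142560025, Gbp5 at chr3:142496684-142496899 and Gbp7 at chr3:142530086-142530335. The stretches of Gbp2, Gbp3 and Gbp5 stop where an annotated GENCODE exon begins, or at the last motif match, which in Gbp2 lies within the first 12 bases of such an exon. Capitals mark matches to 3 motifs, searched on both strands over all 250 bases: the core of the interferon-stimulated response element (ISRE, GAAANNGAA, read here as its reverse complement TTCNNTTTC), the interferon-gamma activated site (GAS, TTCNNNGAA) and a kappaB site.

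Gbp2: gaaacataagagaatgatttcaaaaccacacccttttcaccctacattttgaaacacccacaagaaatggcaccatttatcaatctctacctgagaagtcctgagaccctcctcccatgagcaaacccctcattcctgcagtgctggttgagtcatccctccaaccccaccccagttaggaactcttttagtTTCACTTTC
Gbp3: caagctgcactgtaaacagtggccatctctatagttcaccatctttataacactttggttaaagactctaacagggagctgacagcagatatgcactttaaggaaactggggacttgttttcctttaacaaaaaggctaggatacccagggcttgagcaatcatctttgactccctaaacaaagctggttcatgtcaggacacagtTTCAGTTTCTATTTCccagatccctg
Gbp5: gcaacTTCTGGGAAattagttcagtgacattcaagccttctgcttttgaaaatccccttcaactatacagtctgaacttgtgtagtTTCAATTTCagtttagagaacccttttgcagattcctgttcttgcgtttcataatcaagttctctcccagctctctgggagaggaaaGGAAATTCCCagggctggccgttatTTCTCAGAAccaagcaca
Gbp7: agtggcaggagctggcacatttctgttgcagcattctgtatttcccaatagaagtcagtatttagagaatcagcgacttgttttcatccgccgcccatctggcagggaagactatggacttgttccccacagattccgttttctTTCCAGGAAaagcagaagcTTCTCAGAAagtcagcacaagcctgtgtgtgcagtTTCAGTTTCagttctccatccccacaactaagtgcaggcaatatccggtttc

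An ISRE core was present in all 4 stretches, which are shown because they held a motif. Counted from the RefSeq start site, its first base lay at -58 in Gbp2, at -52 in Gbp7 and at -164 in Gbp5. Gbp3 held 2 overlapping matches, at -44 and -38. GAS matches started at -245 and -52 in Gbp5 and at -106 and -87 in Gbp7, and the one kappaB match started at -77 in Gbp5. A second RefSeq start of Gbp3 had none of the 3 motifs in its window. Among all 32851 windows of this length, 7.13% held the ISRE core, 7.02% the GAS and 7.25% the kappaB site. These matches are letters in a window and do not show that a factor binds there.

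**Figure D1:**
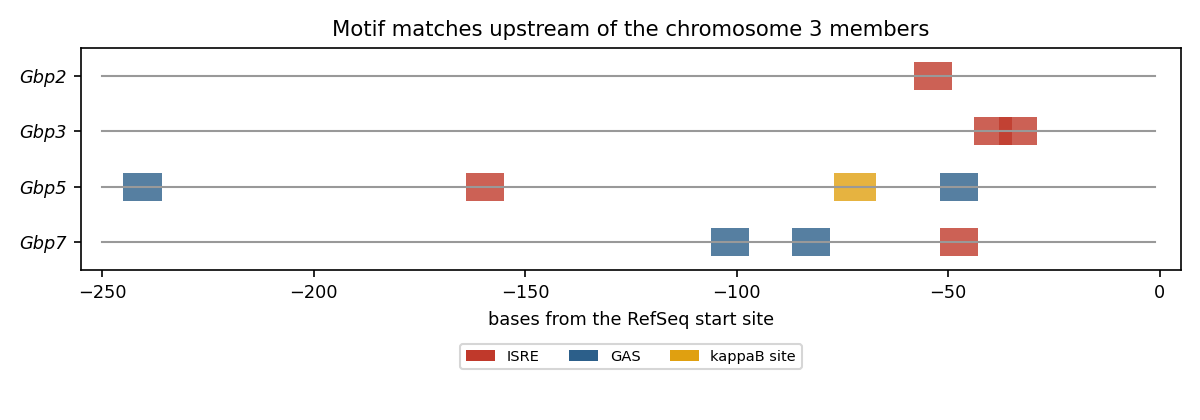
Positions of motif matches in the 250 bases before the RefSeq start sites of Gbp2, Gbp3, Gbp5 and Gbp7; the x axis gives bases from the start site, each row is 1 gene and boxes are matches to the ISRE core (red), the GAS (blue) and the kappaB site (yellow). An ISRE core lies within 58 bases of the start site in Gbp2, Gbp3 and Gbp7, and at -164 in Gbp5.

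Total counts were 40451075 to 89624373 per library. The libraries were not stranded and carried no molecular identifiers, so the counts do not separate PCR copies from molecules. The quasi-likelihood test of edgeR was run on 16512 genes, of which 576 passed a Benjamini-Hochberg adjusted p of 0.05, 401 of them higher and 175 lower in A20KIKO. Tnfaip3, the targeted gene, was 4.48-fold higher in the libraries labelled A20KIKO (log2 change 2.16, SE 0.18, adjusted p = 8.36e-05). Its gene-level count includes exons outside the deleted part, so it does not test the deletion, and directions below are for the libraries as labelled. Keratinocyte markers were abundant in every library, at a summed 46354 to 71276 CPM, the normalised read count scaled to the size and composition of each library. Among them, Krt5, the gene whose promoter drives the recombinase, fell in A20KIKO, from 5574 to 6869 CPM in A20WT to 3354 to 3637 CPM. Its log2 change was -0.83 with an SE of 0.12 and an edgeR adjusted p of 0.00272. The other 7 were not called. Summed endothelial markers were at 1.27 to 3.37 CPM in A20KIKO and 1.51 to 2.27 CPM in A20WT, of which Cdh5 was at most 0.137 CPM and Pecam1 at most 1.72 CPM. Natural killer cell markers summed to 11.5 to 15.3 against 8.90 to 14.2 CPM. Prf1, which T cells also express, reached 15.02 CPM, while Ncr1 and Eomes were at most 0.0351 and 0.0114 CPM. In such bulk samples fewer cells of a type and less RNA per cell cannot be told apart.

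Of the 8 GBP genes, 6 rose in A20KIKO (Gbp2, Gbp3, Gbp5, Gbp6, Gbp7 and Gbp9), none fell, and Gbp4 and Gbp8 did not pass the test. Over all tested genes, 2.43% were called higher and 3.49% were called in either direction, while 10.6% did not overlap between the groups in either direction. The 6 were 9.05-fold to 32.2-fold higher, and 0.509% of tested genes were called higher by at least 8-fold. Every A20KIKO library exceeded every A20WT library for the same 6 genes, a separation that 5.78% of tested genes showed. The median log2 change of the 8 was 3.22, against -0.01 over all tested genes. All 8 passed the filter on low counts. Gbp5 and Gbp9 needed their A20KIKO libraries to pass it, as their lowest A20WT libraries had 0 and 5 counts. In the edgeR fit without a count filter, both were still called higher. Without A20WT mouse 1 or without A20WT mouse 2 the count of genes that passed was 3, namely Gbp5, Gbp6 and Gbp9.

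**Figure D2:**
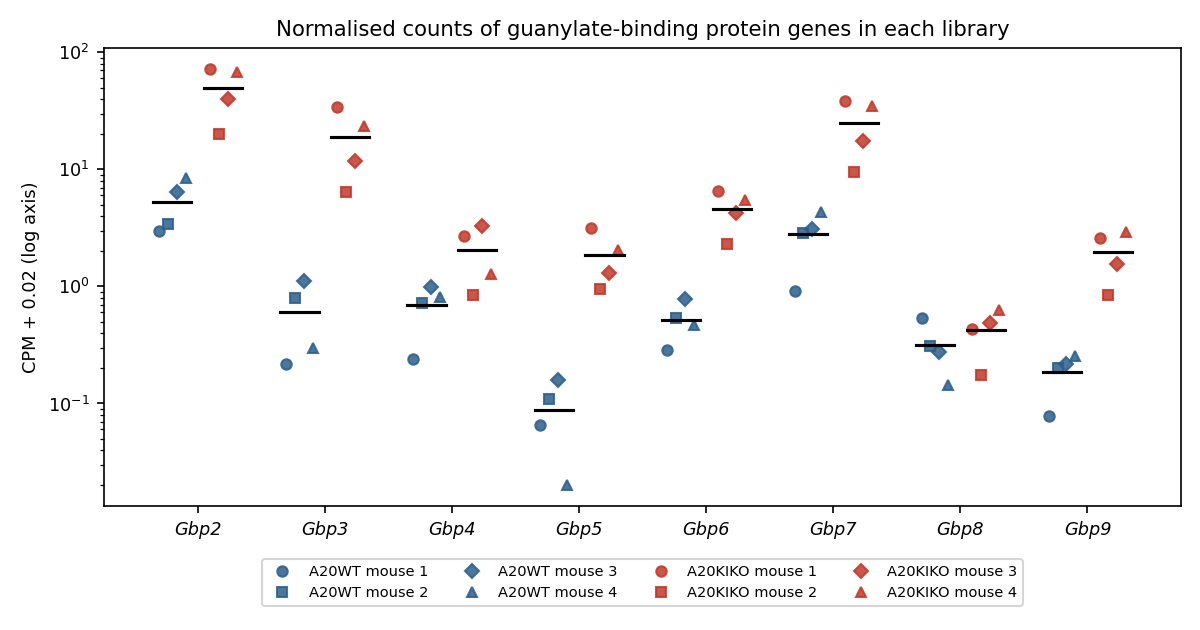
Normalised counts of the 8 GBP genes in the 4 A20WT (blue) and 4 A20KIKO (red) libraries; the y axis is CPM plus 0.02 on a log axis, each point is 1 mouse (shape gives its number) and black lines are group means. The groups separate for 6 genes and overlap for Gbp4 and Gbp8.

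Gbp2 and Gbp5 encode the members with a CaaX box: translated from the annotation, their proteins of 589 and 590 residues end in one, and those of the other 6 do not. Gbp2 was measured at 72.1, 20.04, 40.1 and 67.5 CPM in A20KIKO mice 1 to 4, and at 2.98, 3.42, 6.38 and 8.40 CPM in A20WT mice 1 to 4. The lowest A20KIKO library was thus above the highest A20WT library. The means were 49.9 ± 24.4 and 5.30 ± 2.56 CPM (SD, n = 4 each), a 9.43-fold difference (log2 change 3.24, SE 0.52, adjusted p = 0.0151 by edgeR). The call was lost without A20WT mouse 1, 2 or 3, with adjusted p up to 0.0745.

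Gbp5 was close to undetected in A20WT. It had 21 counts over these 4 libraries, at 0.0461, 0.0901, 0.139 and 0 CPM, where the 0 of mouse 4 allows up to 0.0466 CPM (3 counts, counting error only). The A20KIKO libraries gave 3.16, 0.935, 1.27 and 2.04 CPM, from 555 counts. All of them lay above the A20WT range. Gbp5 rose by 4.69 on the log2 scale (SE 0.66, 25.9-fold, adjusted p = 0.00216 by edgeR), and this call held with any 1 library left out.

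Gbp3 and Gbp7 lie side by side and encode proteins that are 73.1% identical over aligned residues. Gbp3 showed the highest log2 change of the 8. It read 34.3, 6.37, 11.8 and 23.5 CPM in A20KIKO and 0.196, 0.775, 1.10 and 0.279 CPM in A20WT, so that the groups stood well apart. The log2 change was 5.01 (SE 0.78, 32.2-fold, adjusted p = 0.0158 by edgeR). Without A20WT mouse 1 or 2 it no longer passed, with adjusted p up to 0.0734.

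Gbp7 promotes the killing of vacuole-dwelling microbes in mouse cells. Its CPM were 38.4, 9.57, 17.3 and 34.8 in A20KIKO against 0.899, 2.85, 3.10 and 4.27 in A20WT. The groups did not overlap, and the means of 25.0 ± 13.8 and 2.78 ± 1.40 CPM differed 9.05-fold (log2 change 3.18, SE 0.61, adjusted p = 0.0348 by edgeR). Of the 6 calls this was the least secure: it was lost in 6 of 8 fits with 1 library left out (A20KIKO mouse 1 or 3, or any A20WT mouse), with adjusted p up to 0.134. Of its 150-base transcript windows, 8.77% also occur in Gm43802, so some of its reads may be shared.

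On chromosome 5, Gbp6 and Gbp9 rose and Gbp4 and Gbp8 did not pass. The proteins of these 4 genes are 80.6% to 89.3% identical to each other. Gbp6 had 6.48, 2.30, 4.19 and 5.45 CPM in A20KIKO and 0.265, 0.523, 0.754 and 0.450 CPM in A20WT. Every A20KIKO value was above every A20WT value, with a log2 change of 3.21 (SE 0.38, 9.24-fold, adjusted p = 0.0011 by edgeR), the smallest adjusted p of the 8.

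Gbp6 has near-identical copies, which makes its count uncertain. Of its 150-base windows, 59.1% occur unchanged in transcripts of Gbp10 or Gm43302, and its protein is 97.7% identical to that of Gbp10. How reads that match several genes were counted is not given in the sources used here. Gbp10 itself had 45 counts in A20KIKO and 2 in A20WT, too few for the test, and Gm43302 had 3 and 0. Gbp2b had 1 count in all libraries together and Gbp11 had 0.

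Gbp9 read 2.56, 0.831, 1.54 and 2.93 CPM in A20KIKO and 0.0576, 0.180, 0.197 and 0.233 CPM in A20WT, without overlap. It was 11.9-fold higher in A20KIKO (log2 change 3.57, SE 0.50, adjusted p = 0.00215 by edgeR). The calls of Gbp6 and Gbp9, like that of Gbp5, held with any 1 library left out.

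Gbp4 gave 2.68, 0.831, 3.28 and 1.26 CPM in A20KIKO and 0.219, 0.703, 0.974 and 0.792 CPM in A20WT. A20KIKO mouse 2 lay within the A20WT range, and the log2 change of 1.58 (SE 0.50) had an adjusted p of 0.127 by edgeR, while DESeq2 called the gene. Gbp8 was at 0.409, 0.156, 0.466 and 0.603 CPM against 0.519, 0.288, 0.255 and 0.124 CPM. Its groups overlapped throughout, on 116 and 91 counts, with a log2 change of 0.46 (SE 0.52, adjusted p = 0.767 by edgeR). That p does not show that Gbp8 was unchanged.

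The members largely shared 1 order of mice. In A20KIKO the order was mouse 1, 4, 3, 2 from high to low for Gbp2, Gbp3, Gbp5, Gbp6 and Gbp7, and mouse 2 was the lowest for all 8 genes. The highest A20KIKO library exceeded the lowest by 2.81 times for Gbp6 and by 5.38 times for Gbp3. In A20WT, mouse 1 was the lowest for Gbp2, Gbp3, Gbp4, Gbp6, Gbp7 and Gbp9. As a description over 8 libraries that share group differences, the log2 CPM of Gbp7 and Gbp9 correlated at r = 0.993, although they lie on different chromosomes. After the group means were removed it was 0.988, the highest of the 28 pairs. Among pairs of the 6 called members it went down to 0.185 for Gbp2 and Gbp5, and Gbp5 had 0.270 with Gbp7 and 0.319 with Gbp9. Over the 8 libraries with the group means kept, Gbp8 correlated with the other members at 0.159 to 0.479. With the means removed, its r ranged from -0.0858 with Gbp4 to 0.557 with Gbp5.

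Compared per length of merged exon (RPKM, counts per kilobase of exon scaled like CPM), Gbp2 was the most abundant member in each group, at 19.8 ± 9.71 RPKM in A20KIKO and 2.11 ± 1.02 RPKM in A20WT. In A20KIKO it was followed by Gbp3 (5.81 ± 3.81 RPKM) and Gbp7 (4.46 ± 2.46 RPKM), whose levels lay within each other's spread. Gbp6 came next (0.774 ± 0.302 RPKM), and Gbp9, Gbp5, Gbp4 and Gbp8 had mean levels of 0.380, 0.279, 0.269 and 0.119 RPKM. The first 3 of these 4 lay within each other's spread. In A20WT the order was Gbp2, Gbp7 (0.495 ± 0.249 RPKM), Gbp3 (0.180 ± 0.131 RPKM), then Gbp4, Gbp8 and Gbp6 at mean levels of 0.0897, 0.0861 and 0.0836 RPKM. Gbp9 and Gbp5 were last, at 0.0323 and 0.0104 RPKM. Other definitions of length exchanged neighbours at these low levels.

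The summed level of the 8 genes was 48.5, 12.5, 24.4 and 42.4 RPKM in A20KIKO and 1.65, 2.42, 3.81 and 4.45 RPKM in A20WT. Every A20KIKO sum was above every A20WT sum. Gbp2, Gbp3 and Gbp7 together made up 92.8% to 95.0% of it in A20KIKO and 85.3% to 94.1% in A20WT. Gbp3 took 14.8% to 21.6% of the summed level in A20KIKO and 1.92% to 9.81% in A20WT, ranges that did not overlap.

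**Figure D3:**
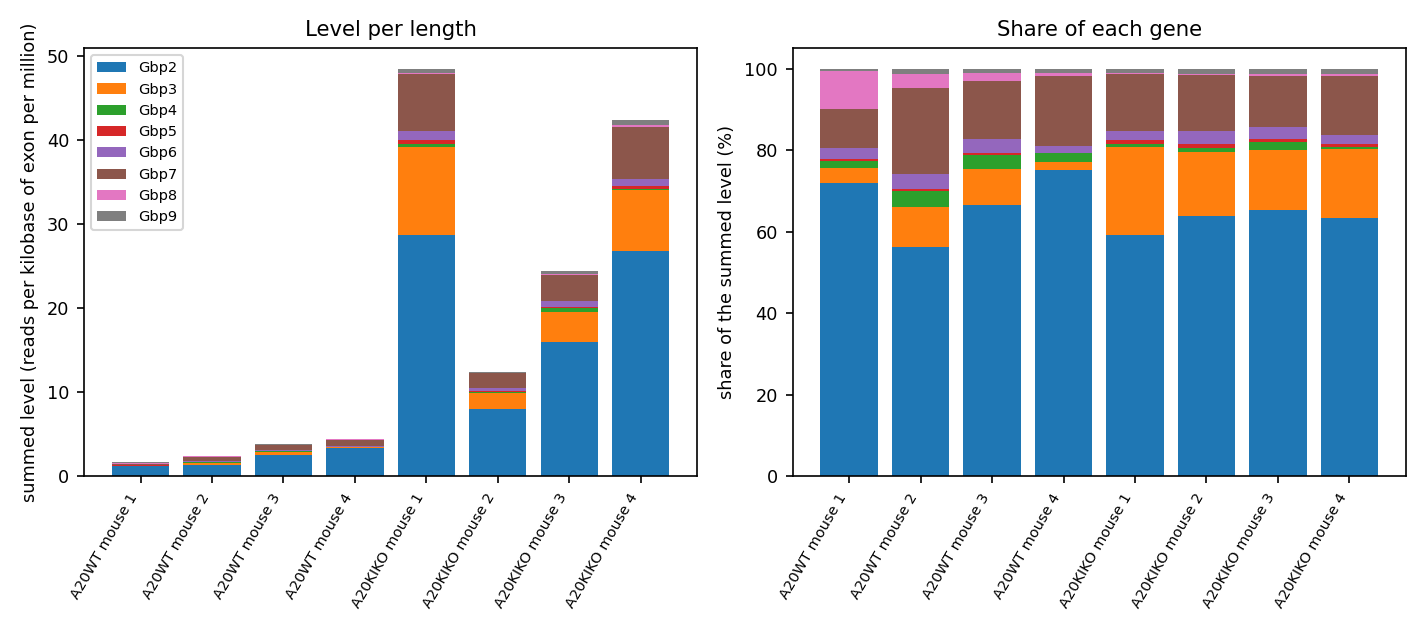
Level per length of the 8 GBP genes stacked for each library (left, y axis in RPKM) and as a share of their sum (right, y axis in percent); each bar is 1 mouse and each colour 1 gene. Gbp2 is the largest part of each bar, and Gbp3 takes 14.8% to 21.6% of the A20KIKO bars against 1.92% to 9.81% of the A20WT bars.

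Whether the members changed unequally was examined through the ratio of their counts within a library, which does not depend on library size. The ratio of Gbp3 to Gbp2 in CPM was 0.475, 0.318, 0.294 and 0.349 in A20KIKO and 0.0656, 0.226, 0.173 and 0.0333 in A20WT. All A20KIKO ratios were above the A20WT ratios. The log2 ratio of Gbp2 to Gbp3 was 1.78 lower in A20KIKO, with an exact two-sided permutation p of 0.0286, the smallest that 4 against 4 allows. Of the 28 pairs of members, 15 reached this p and did not overlap, but after adjustment over the 28 pairs their value was 0.0533, so none passed. With a constant of 0.5 in place of 2 added to the counts before taking logs, 17 pairs passed. With 5, 16 pairs stood at the threshold of 0.05 itself and not under it. Passing thus turned on how many pairs reached the smallest p.

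Most of these 15 pairs held Gbp8 or Gbp3. The values that follow are differences in mean log2 CPM with the constant of 2, which differ somewhat from those of the edgeR log2 changes. None of these pairs passed after adjustment. The difference between the groups was lower for Gbp8 than for Gbp2, Gbp3, Gbp5, Gbp6, Gbp7 and Gbp9 by 2.69 to 4.54. For Gbp3 it was higher than for Gbp2, Gbp4, Gbp6, Gbp7 and Gbp9, by 1.66 to 3.46. The log2 ratio of Gbp2 to Gbp7 differed by 0.04 between the groups (exact permutation p = 0.857, SD of the log2 ratio 0.13 in A20KIKO and 0.59 in A20WT, n = 4 each). Such a p does not show that their changes were equal.

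**Figure D4:**
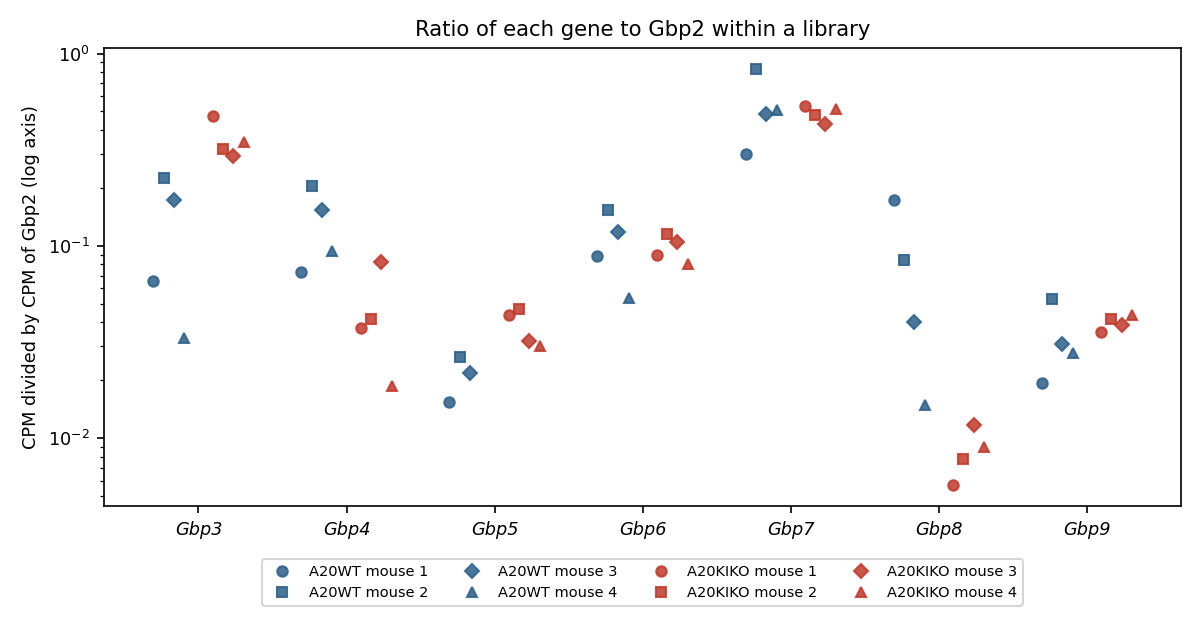
CPM of each member divided by the CPM of Gbp2 in the same library; the y axis is a log axis, each point is 1 mouse (blue A20WT, red A20KIKO, shape for its number), and Gbp5 has no point in A20WT mouse 4, where it had 0 counts. With no constant added, the A20KIKO ratios lie above those of A20WT for Gbp3 and Gbp5 and below them for Gbp8; with the constant of 2 counts used for the tests, Gbp5 overlaps.

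The ligands that induce GBPs were scarce in these libraries. Ifng, encoding interferon-gamma, had 12 counts over the A20KIKO and 9 over the A20WT libraries, at most 7 in any library. Ifnb1, encoding interferon-beta, had 29 counts in A20KIKO, 26 of them in mouse 4, and none in A20WT. The interferon-lambda genes Ifnl2 and Ifnl3, which are near-identical copies, had 60, 2, 6 and 99 and 10, 1, 8 and 55 counts in A20KIKO mice 1 to 4, against 1 and 0 in all A20WT libraries. A20KIKO mouse 4 held most of the counts of each of these 3 genes. Among the A20KIKO mice it was the highest for Gbp8 and Gbp9, second for Gbp2, Gbp3, Gbp5, Gbp6 and Gbp7, and behind mice 3 and 1 for Gbp4. The part of these ligands in the GBP changes was not tested. These genes missed the filter on low counts. Fitted without that filter, edgeR gave adjusted p = 0.00403 for Ifnl2 and 0.00613 for Ifnl3, and 0.11 for Ifnb1 and 0.926 for Ifng, which were not called. With 1 library left out, Ifnl2 passed the filter in 3 fits, with adjusted p of 0.00354 without A20KIKO mouse 2 and up to 0.0758 without A20WT mouse 2 or 4. With 1 count in all A20WT libraries, it entered these fits only through A20KIKO. The fit with the smaller p left out the A20KIKO library where Ifnl2 was lowest.

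Of 12 ligand and receptor genes, 6 were tested and 2 rose, Ifngr1 and Ifngr2, the chains of the interferon-gamma receptor. Ifngr1 ranged from 193 to 235 CPM in A20KIKO and from 134 to 161 CPM in A20WT (log2 change 0.56, SE 0.11, adjusted p = 0.0142 by edgeR), a call lost without A20KIKO mouse 1 or A20WT mouse 4, with adjusted p up to 0.0585. Ifngr2 ranged from 81.5 to 110 CPM against 59.0 to 76.1 CPM (log2 change 0.52, SE 0.13, adjusted p = 0.0492), lost in 7 of 8 fits with 1 library left out. Without A20KIKO mouse 1 or A20WT mouse 4, none of the 6 was called. The groups did not overlap for either gene. The median log2 change of the 6 was 0.40.

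Among 10 signal transducers and transcription factors, 4 rose and none fell, with a median log2 change of 0.82. Irf1, which binds ISRE-type sites, had 67.4, 42.4, 52.7 and 78.6 CPM against 11.5, 14.7, 16.7 and 19.7 CPM. It rose by 1.95 on the log2 scale (SE 0.21, adjusted p = 0.00058). Stat2, which carries the type I and type III interferon response together with Irf9, had 84.1, 41.6, 59.0 and 76.9 CPM against 13.8, 23.2, 22.2 and 22.3 CPM, in the GBP order of mouse 1, 4, 3, 2 within A20KIKO (log2 change 1.68, SE 0.23, adjusted p = 0.00184 by edgeR). Neither Irf1 nor Stat2 overlapped between the groups. Irf7 (log2 change 3.48) and Irf9 (1.43) rose as well, with adjusted p of 0.00126 and 0.000592. Jak1, Jak2, Tyk2, Irf2, Irf8 and Socs1 were not called.

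The immunity-related GTPases are a second family of interferon-induced GTPases that guards vacuole membranes alongside GBPs. They rose in 7 of 7 tested genes, with a median log2 change of 2.63, where 2.43% of all tested genes were called higher. Without A20WT mouse 2 the count in this family was 4, as Irgm2, Tgtp2 and Ifi47 no longer passed. Ifi47 was lost in 7 of 8 and Tgtp2 in 6 of 8 fits with 1 library left out. Gm12250 and Tgtp1 needed their A20KIKO libraries to pass the filter on low counts. Their lowest A20WT libraries had 3 and 4 counts. Gm12250 was at 4.78, 0.900, 3.19 and 3.60 CPM in A20KIKO and at 0.0922, 0.0541, 0.209 and 0.0776 CPM in A20WT (log2 change 4.78, SE 0.56, adjusted p = 0.000971 by edgeR). Igtp, which directs loading of GBPs onto vacuoles together with its relatives, had 69.7, 26.0, 33.8 and 66.1 CPM against 7.08, 7.30, 8.32 and 8.94 CPM (log2 change 2.63, SE 0.30, adjusted p = 0.00139). Neither overlapped between the groups. Tgtp1 rose by 3.32 on the log2 scale (adjusted p = 0.00221), with the caution that its neighbour Tgtp2 is a near-identical copy.

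Downstream of GBPs, 2 of 8 inflammasome genes rose and none fell, with a median log2 change of 1.06. Gsdmd, encoding the pore-forming gasdermin D, had 13.6, 6.77, 11.9 and 11.9 CPM in A20KIKO and 3.46, 4.76, 3.43 and 4.60 CPM in A20WT (log2 change 1.45, SE 0.22, adjusted p = 0.00313 by edgeR). Casp4, encoding a sensor of cytosolic lipopolysaccharide that is also known as caspase-11, had 7.55, 3.57, 6.40 and 6.42 CPM against 2.47, 2.02, 2.86 and 2.69 CPM (log2 change 1.25, SE 0.24, adjusted p = 0.0119), lost without A20KIKO mouse 1. The groups did not overlap for either gene.

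Genes whose products modify GBPs or help to place them did not pass the test. Of all tested genes, 3.49% were called in either direction, so short lists without a call do not stand apart from genes at large. None of 6 enzymes of CaaX prenylation and processing was called by edgeR (median log2 change 0.02), Fnta and Rce1, the most abundant, having log2 changes of -0.14 and 0.05. None of 10 genes of the Atg8 conjugation machinery, which takes part in targeting GBPs to vacuoles, was called (median log2 change -0.05), with -0.21 for Map1lc3b and -0.22 for Map1lc3a. None of the 3 atlastins, relatives of GBPs by fold, was called (median log2 change 0.03).

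**Figure D5:**
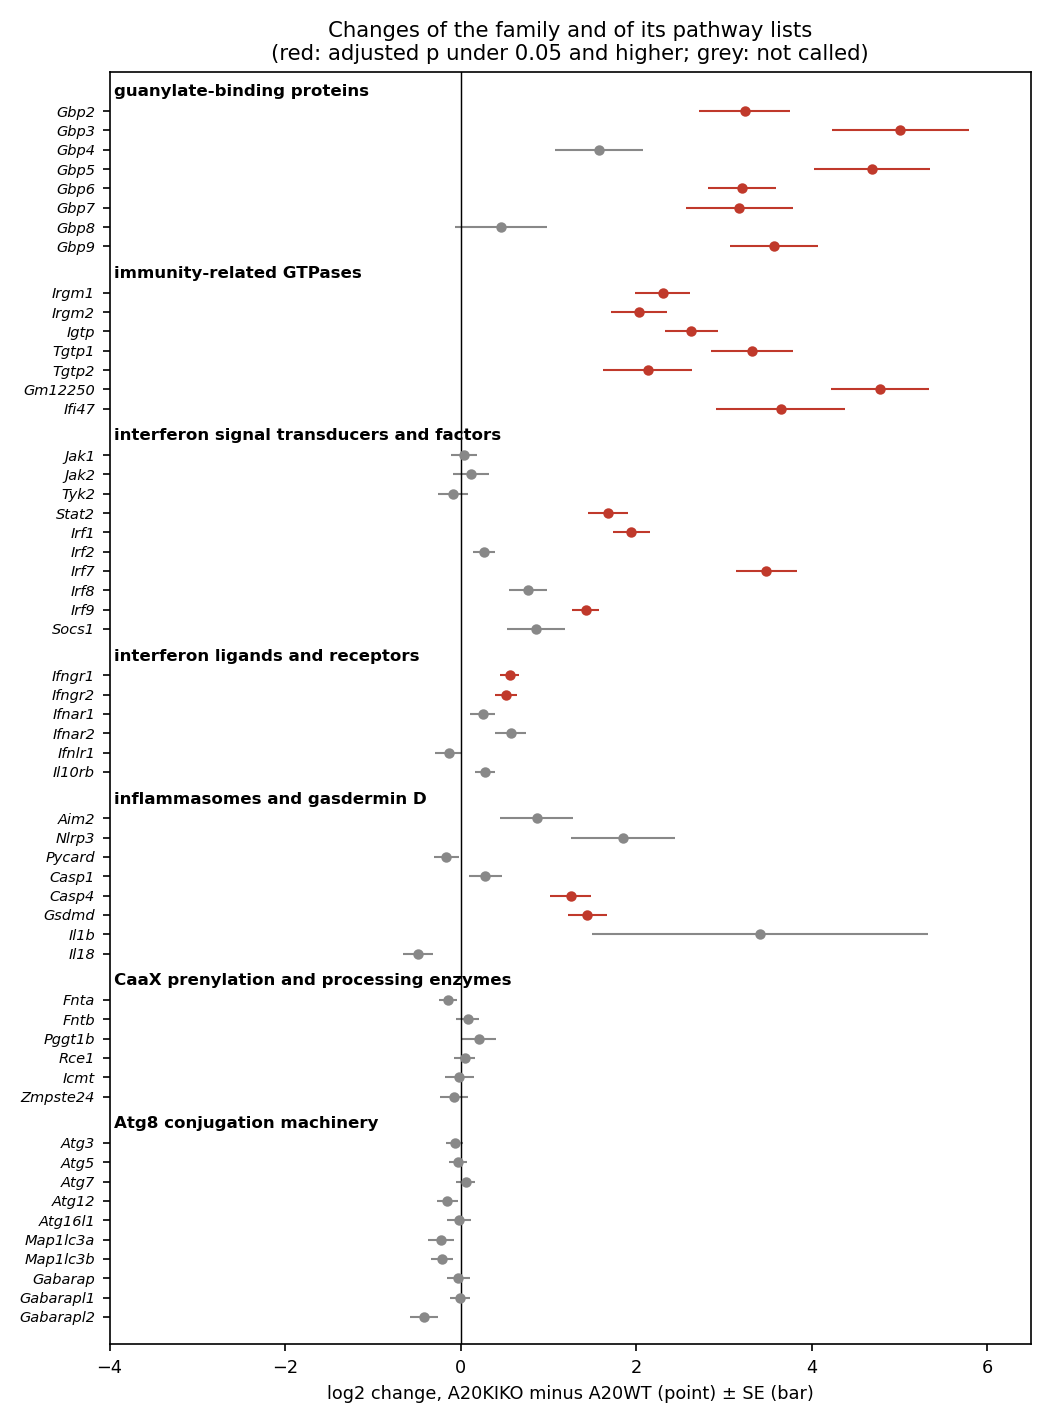
Log2 change between A20KIKO and A20WT (x axis; points, with bars of 1 SE) for the 8 GBP genes and for the tested genes of 6 related lists; red marks genes called higher at an adjusted p under 0.05 and grey those not called. Of the GBP genes 6 are red, as are 7 of 7 immunity-related GTPases, and no gene of the CaaX or Atg8 lists is. Among all tested genes, 2.43% were called higher.

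The genes whose log2 CPM followed the mean profile of the 8 members most closely over the 8 libraries, among 10334 genes that averaged 5 CPM or more, were Ddx60 (r = 0.992), Stat2 (0.991), Ddx58 (0.991), Ifit3b (0.990) and Sp100 (0.989). That average was taken over both groups. Ddx60, Ifit3b and Sp100, with A20WT means of 0.803, 0.0755 and 3.49 CPM, reached it through their A20KIKO libraries. Correlations over 0.95 were found for 97 genes, 0.939% of those compared. These r values are descriptions, since all 8 libraries share the same group difference. Tnfaip3 stood at 0.984 and Irf1 at 0.975. Within the 4 A20KIKO libraries alone the closest were Syncrip, Calcb, Picalm, Pum2 and Nceh1 (r of 0.9998 to 1.00 over 4 points), of which none was called higher and Calcb was called lower. Stat2 stood at 0.994 there and Irf1 at 0.906.

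Markers of other cells moved in part with the groups. Of 8 tested markers of monocytes and macrophages, 3 rose (C1qa, C1qb and Ly6c2) and none fell. Fcgr1 and Ms4a7 missed the filter on low counts, with 187 and 435 counts in A20KIKO against 1 and 6 in A20WT. The groups did not overlap for Fcgr1 and overlapped for Ms4a7. The summed level of the whole list of 10 was 107 to 185 CPM in A20KIKO and 65.6 to 107 CPM in A20WT. For mouse 4 of A20KIKO, Cd14 gave 52.4 CPM of this level. Elsewhere Cd14 was at most 5.65 CPM. Summed pan-leukocyte markers were at 277 to 360 CPM against 214 to 255 CPM, with none of 5 called. Langerhans cell markers (2446 to 2691 against 2065 to 2551 CPM) and T cell markers (119 to 127 against 111 to 136 CPM) overlapped, and none was called. Summed fibroblast markers were lower in every A20KIKO library, at 15.1 to 36.7 against 39.7 to 55.3 CPM, with a median log2 change of -1.56 and none of 5 called. Melanocyte markers had a median log2 change of 1.38, with summed levels of 43.6 to 209 against 38.6 to 52.4 CPM and none of 4 called. Summed neutrophil markers were 23.1 to 2910 CPM in A20KIKO, highest in mouse 4, and 5.59 to 38.4 CPM in A20WT, with none of 3 called. In mouse 4 nearly all of this sum came from S100a9 (1899 CPM) and S100a8 (947 CPM), while Csf3r was at 12.1 and Ly6g at 1.61 CPM. The fit without A20KIKO mouse 4 called 6 GBP genes higher. The part that these cells have in the GBP changes was not tested.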

How the data were processed

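RNA was sequenced from 8 ear epidermal sheets with the SMART-Seq v4 and Nextera kits, per the labels' protocols, paired-end and without strand or molecular identifiers. The authors deposited whole-number counts for each Ensembl gene, as 2 lane columns per library, which were summed. HTSeq 0.6.1p1, Picard 1.139 and STAR 2.4.2a are listed, with no roles, in the submitters' processing notes; GRCm38.p5 and GRCh38 are the builds listed there. For the annotation and counting options, the sources used here give nothing.

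Of 51912 identifiers, 51633 matched a symbol. After filterByExpr (minimum count 10, minimum total 15), 16512 genes were fitted in R 4.3.3 with edgeR 4.0.16: TMM factors, robust quasi-likelihood test, group as the only term, two-sided, Benjamini-Hochberg over all tested genes, called at an adjusted p under 0.05. The SE was derived from F, as |log2 change| over its square root. Log2 CPM used a prior count of 2. The script was tested on simulated data.

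Ratios of members were compared with exact permutation tests. Motifs, protein features and shared 150-base windows were found in RefSeq and GENCODE M21 tables. Related genes were named by a rule: per list, up to 3 called genes with the smallest adjusted p, or the 2 most abundant where none was called, plus Ifng, Irf1 and the 5 most similar profiles. The lists and members were chosen with earlier results of these data known. A gene of the list of signal transducers is not reported here. Ifnb1, Ifnl2, Ifnl3 and other genes outside this rule were named after their values were seen.

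Replicate numbers name separate mice and were not treated as pairs. Deviations of same-numbered libraries correlated at -0.014 to 0.237. The closest A20WT library was the same-numbered one for numbers 1 and 4, but not for 2 and 3, which does not settle whether the numbers pair the samples. The labels call the mice distinct, so p-values measure spread between mice. Alternatives covered scaling, filters, DESeq2 1.42.0, limma 3.58.1, thresholds, depth, lanes, the replicate number and left-out libraries. Exon bases shared with no other gene were added as a length after the data were seen.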

Additional observations from a re-analysis of the deposited data

How the results depend on the processing

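Of the 8 members, 6 were called higher in the fit described. DESeq2 called 7, and scaling factors, limma-voom, non-robust dispersions, thinning to the smallest library and each lane alone left 6. The count was 3 with a filter of 5 CPM in 4 libraries, where fewer genes are tested. Of the members only Gbp2, Gbp3 and Gbp7 passed that filter, and all 3 were called. All 3 needed their A20KIKO libraries to pass it, as A20WT mice 1 and 2 were below 5 CPM for each. The filter thus favoured genes high in A20KIKO. At an adjusted p under 0.01 the count was also 3, namely Gbp5, Gbp6 and Gbp9. With 1 library left out it ranged from 3 (without A20WT mouse 1 or 2) to 6. Over the pathway lists, 15 genes were called higher, 9 with the 5 CPM filter, and 10 to 18 with 1 library left out. All genes called numbered 576, against 1133 with DESeq2, 374 with the 5 CPM filter, 250 at 0.01, 200 against a 1.5-fold change, 348 without A20KIKO mouse 1 and 355 without A20WT mouse 3.

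With the replicate number as a block, 551 genes and 4 members were called; Gbp3 had an adjusted p of 0.108 and Gbp7 of 0.0948. Gbp7 also missed the threshold without a count filter and against a 1.5-fold change. The numbers name separate mice and were not treated as pairs in the main fit, and why these calls were lost was not tested.

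Pairs of members that passed numbered 0 with a prior count of 2 and 17 with 0.5, while with 5 there were 16 at the threshold. With all 8 libraries no exact p can go below 0.0286, so whether any pair passes depends on how many reach this value. With a prior count of 2 it was 15, and their adjusted value was 0.0533. With 5, the 16 stood at the threshold of 0.05 itself and not under it. With 1 library left out, 3 against 4 cannot go below an exact p of 0.0571. Small differences changed sign. The log2 change of Syncrip was -0.0421 with upper-quartile factors, -0.00457 with the 5 CPM filter, -0.000953 with limma-voom, -0.0380 in lane 2 and -0.00443 with the block, and it ranged from -0.0669 to 0.0995 with 1 library left out. That of Rce1 was -0.00141 with upper-quartile factors and ranged from -0.0316 to 0.147 with 1 library left out. Differences between members reversed for Gbp2 and Gbp6 (-0.149 to 0.348 without 1 library), Gbp2 and Gbp7 (-0.202 to 0.277), Gbp2 and Gbp9 (0.156 at prior count 5, -0.357 to 0.00354 without 1 library), Gbp3 and Gbp5 (-0.0699 at 0.5), Gbp6 and Gbp7 (0.0205 at 0.5, -0.314 to 0.188 without 1 library) and Gbp7 and Gbp9 (0.101 at 5). Low counts limit the values of Gbp10, Gbp2b, Gm43302, Ifng and Ifnb1, and of Gbp5 in A20WT.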
